A study of Mus musculus with 13 samples.

Results

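The small proline-rich (Sprr) genes were read from 11 of the 45037 probe sets on the array. A set was taken where the platform annotation names one of the genes. The annotation gave 1 gene symbol for 8 of them, for Sprr1a, Sprr1b, Sprr2d, Sprr2f, Sprr2h, Sprr2i, Sprr2k and Sprr3. It gave several symbols for 3 sets, which read Sprr2a1 and Sprr2a2, in 1 case with Sprr2a3. These 3 sets are not gene-specific. They are called here the 3-gene set, the bright 2-gene set and the dim 2-gene set of Sprr2a, after the number of genes they are annotated to and their signal. A further set is annotated to Sprr2j-ps, a transcribed pseudogene that is not among the 8 genes, and its values are given apart.

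Sprr proteins are small precursors of the cornified envelope, the protein shell that forms beneath the membrane of stratified squamous epithelial cells. Transglutaminases cross-link them, through their ends, to one another and to loricrin, involucrin and other precursors, and the proline-rich repeats in their middle act as flexible bridges. Their genes lie together in the epidermal differentiation complex. Sprr1 and Sprr3 genes are known from skin, mouth and oesophagus, and Sprr2 genes also from uterus, bladder and gut.

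The RNA came from adult prostatic progenitor/stem cells cultured from 10 wk old wild-type B1/6; 127/SVEV mice, at passage 22. Cultures at 70% confluency received medium with 0.1% ethanol (vehicle) or with 100 nM 1,25(OH)2D3 (1,25D), the hormonal form of vitamin D, which acts through a nuclear receptor. Exposure lasted 6 h, or 48 h with medium renewed daily. There were 3 arrays each for vehicle at 6 h, 1,25D at 6 h and vehicle at 48 h, and 4 for 1,25D at 48 h. Nothing in the labels tells separate cultures from repeat arrays, so p-values measure only the spread between these arrays, and their number limits the precision. No batch is named in the labels.

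Values are the authors' deposited log2 signals, with array medians of 5.57 to 5.67. Probe sets of different sequence bind differently, so changes and tests compare groups within a probe set. Interquartile ranges were 3.03 for vehicle 6 h replicate 1 and 2.95 for 1,25D 48 h replicate 4, against 3.27 to 3.46 on the other 11 arrays. Counts without these 2 arrays are given for each comparison. Mean percentile ranks among all probe sets, a rough guide to brightness only, ran from 68.8 (Krt15) to 99.9 (Krt14) over 6 markers of basal epithelium. They ran from 6.39 (Pbsn, a secretory product of the mature prostate) to 99.7 (Krt8 and Krt18) over 5 luminal markers, from 16.4 (Ptprc) to 67.1 (Cd3e) over 7 immune markers and from 18.3 (Tek) to 48.0 (Kdr) over 5 endothelial markers.

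Cells exposed to 1,25D for 48 h had more Sprr mRNA than vehicle cells for all 8 single-gene sets, by 1.95-fold to 18.0-fold, and less signal for the Sprr2a sets, by 1.43-fold to 2.21-fold. At 6 h the signal of 2 of the 3 Sprr2a sets was instead higher, together with Sprr2h, and no other single-gene set had passed the test. Between 6 h and 48 h most of these genes also went up in vehicle alone. The plot of signals by array shows these patterns for each set.

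**Figure D1:**
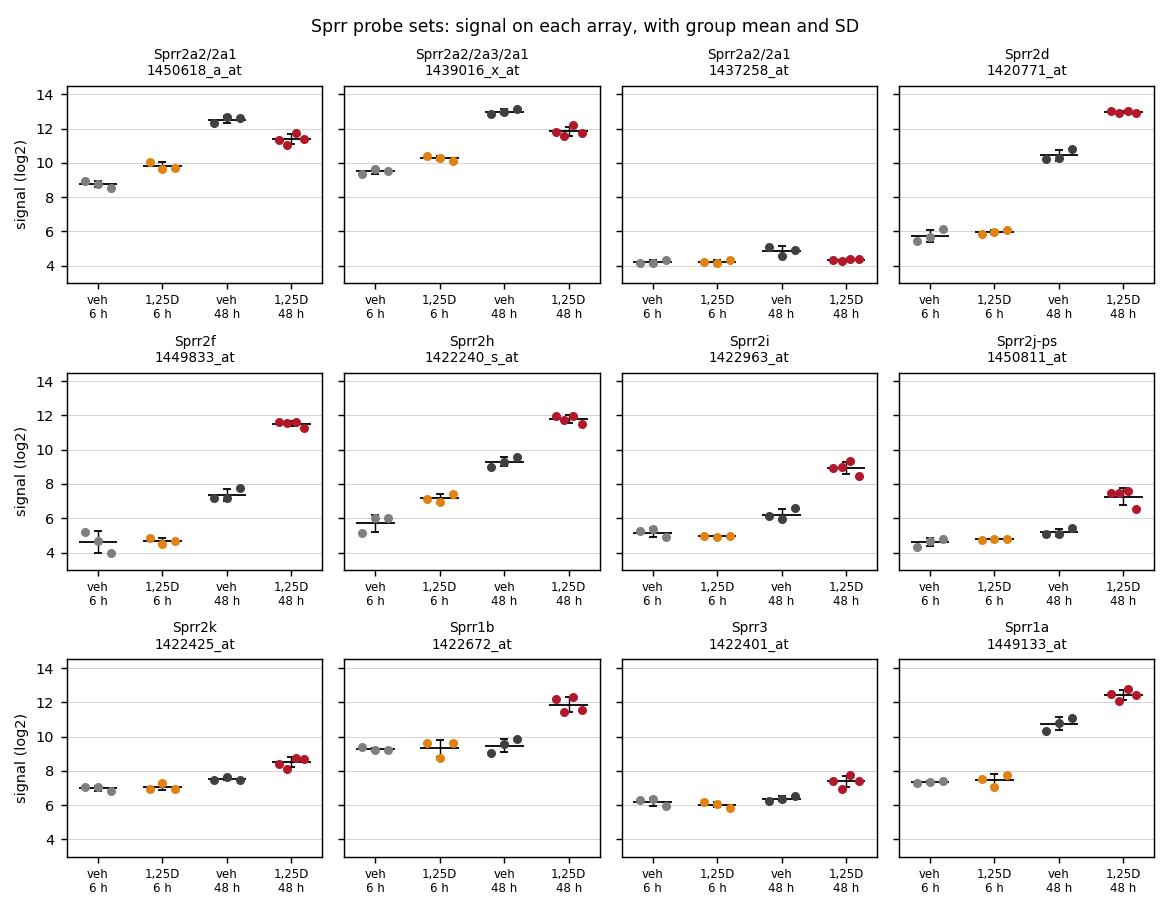
Log2 signal (vertical axis) of 12 Sprr probe sets on each array, by group (horizontal axis), with the group mean (line) and SD (bar), for 3, 3, 3 and 4 arrays; Sprr2j-ps is shown for comparison. Single-gene sets are highest in 1,25D at 48 h, whereas the Sprr2a sets are highest in vehicle at 48 h.

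The genes form 1 cluster on chromosome 3. In the RefSeq gene table of GRCm38.p6, 17 Sprr genes and pseudogenes follow each other there, and 12 of them have a probe set by symbol. From one end the measured ones run Sprr2a1, Sprr2a2, Sprr2a3, Sprr2d, Sprr2f, Sprr2h, Sprr2i, Sprr2j-ps, Sprr2k, Sprr1b, Sprr3 and Sprr1a. The Sprr2a genes, whose signal fell at 48 h, thus stand at the opposite end of the row from Sprr1a.

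Promoters are printed for some of the members. The 200 bases before the start are shown for 4 Sprr2 genes and Sprr1a, which rose at 48 h, and for Sprr2a1, whose sets fell. Sprr2h was also called at 6 h, unlike the other risers shown. Sprr2k, Sprr1b and Sprr3 rose at 48 h too and are not printed, but their matches are given below. They are RefSeq sequence of GRCm38.p6, read 5′ to 3′ toward the gene: Sprr2f (chr3:92364987-92365186, plus strand), Sprr2d (chr3:92338940-92339139, plus strand), Sprr2i (chr3:92407791-92407990, plus strand), Sprr2h (chr3:92385485-92385684, plus strand), Sprr1a (chr3:92485882-92486081, minus strand) and Sprr2a1 (chr3:92215635-92215834, plus strand). Capitals mark matches to TGANTCA (bound by AP-1, the Fos and Jun factors), to the octamer ATGCAAAT (bound by POU factors such as Oct-1) and to TATAAA (the TATA box), on either strand.
Sprr2f: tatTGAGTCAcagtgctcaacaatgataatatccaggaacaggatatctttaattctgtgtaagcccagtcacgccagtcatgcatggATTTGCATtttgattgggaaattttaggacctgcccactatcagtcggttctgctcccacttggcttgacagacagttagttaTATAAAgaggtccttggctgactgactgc
Sprr2d: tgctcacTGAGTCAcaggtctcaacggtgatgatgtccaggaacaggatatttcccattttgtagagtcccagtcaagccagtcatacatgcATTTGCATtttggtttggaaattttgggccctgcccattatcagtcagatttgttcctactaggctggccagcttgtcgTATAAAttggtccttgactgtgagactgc
Sprr2i: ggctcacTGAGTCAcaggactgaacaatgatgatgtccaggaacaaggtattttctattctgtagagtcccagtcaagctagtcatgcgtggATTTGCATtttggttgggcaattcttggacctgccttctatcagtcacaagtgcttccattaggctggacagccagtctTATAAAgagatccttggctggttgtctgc
Sprr2h: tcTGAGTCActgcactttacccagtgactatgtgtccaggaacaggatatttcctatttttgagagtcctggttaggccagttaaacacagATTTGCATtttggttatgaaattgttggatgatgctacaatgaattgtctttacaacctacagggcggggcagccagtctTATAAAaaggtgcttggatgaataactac
Sprr1a: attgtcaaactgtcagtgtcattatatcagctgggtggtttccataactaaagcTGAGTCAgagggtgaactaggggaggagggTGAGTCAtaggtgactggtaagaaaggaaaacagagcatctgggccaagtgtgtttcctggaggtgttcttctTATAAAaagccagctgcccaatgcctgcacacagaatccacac
Sprr2a1: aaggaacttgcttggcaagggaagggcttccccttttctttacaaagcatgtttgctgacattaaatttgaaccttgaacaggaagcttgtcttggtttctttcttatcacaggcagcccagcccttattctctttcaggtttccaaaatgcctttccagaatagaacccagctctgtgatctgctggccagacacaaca

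Among the 14 Sprr genes with a promoter entry, 7 held the octamer: Sprr2b, Sprr2d, Sprr2e, Sprr2f, Sprr2h, Sprr2i and Sprr2k. It was on the opposite strand in each and began 108 to 112 bases before the start. The same 7 held TGANTCA, farther out, at 193 to 198 bases before the start, and TATAAA at 29 bases. Sprr2k held a second TGANTCA at 182 bases. Sprr1a held TGANTCA at 146 and 116 bases and Sprr1b at 111 bases, with no octamer. Sprr3 held only TATAAA. Sprr2a1, Sprr2a2, Sprr2a3 and Sprr4 held none of the 3 motifs in this window, which says only that these letters are not there before the start that RefSeq annotates. Of all 32851 promoter windows of this length, 1.38% held the octamer, 5.48% TGANTCA and 9.96% TATAAA. Sprr2k, with all 3 motifs, changed by 0.96 at 48 h, and Sprr3, with only TATAAA of these, by 1.00. Whether the motifs go with the response was not tested.

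**Figure D2:**
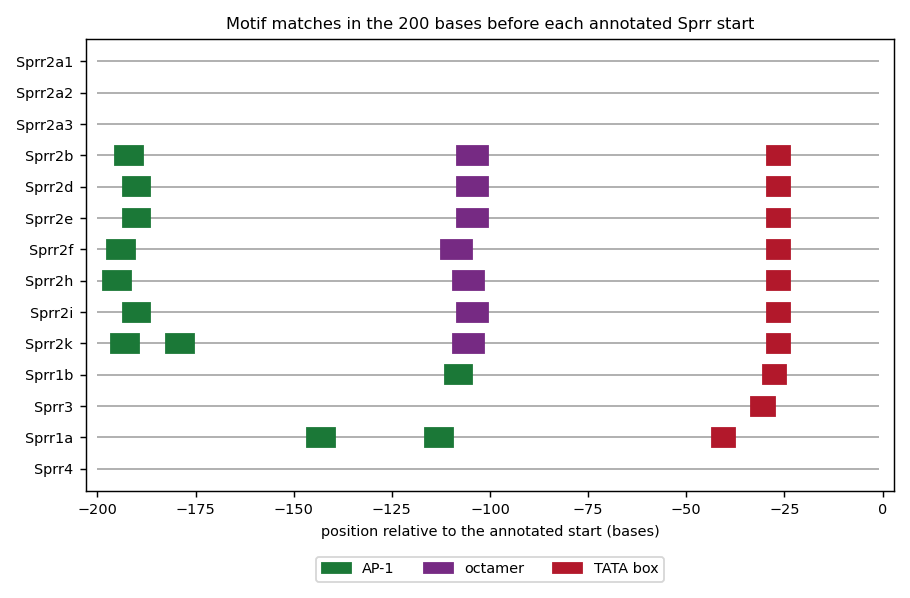
Matches to the AP-1 motif, the octamer and the TATA box in the 200 bases before each annotated Sprr start (horizontal axis, bases from the start), with genes in cluster order. In 7 Sprr2 genes matches to the 3 motifs stand at nearly the same places, and the Sprr2a windows hold none of them.

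Of the other motifs looked for, AGGAAG (Ets) was found in 6 of the 14 windows against 24.7% of all, CCACCC (Klf and Sp1) in 5 against 24.1%, and TGANNNNGC (the antioxidant element) in 8 against 29.6%. In Sprr1a and Sprr2b the last of these overlaps a TGANTCA or octamer match. The vitamin D response element, searched as a direct repeat with a spacer of 3 bases, was found in 0 of 14 windows and in 0.0304% of all. Sprr2d and Sprr2i were identical at 80.1% of aligned positions over these 200 bases, and Sprr2d and Sprr2f at 76.5%. Sprr2a1 and Sprr2d were identical at 50.4%, near the values of genes from different branches, such as Sprr2a1 and Sprr4 (49.2%) or Sprr2d and Sprr1a (49.8%). Sprr2a1 and Sprr2a2 were identical at 100%. The same AGGAAG match began 120 bases before the start in Sprr2a1 and 92 bases in Sprr2a3, so the annotated starts of these copies are offset. Windows set by annotated starts may cover different stretches, and a low identity does not show that the promoters differ. What unrelated windows would give was not tested.

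At 6 h, the Sprr2h set and the brighter Sprr2a sets passed the test, and the other sets did not. In limma's moderated test over all probe sets with Benjamini-Hochberg adjustment, 3 of the 11 sets were called at an adjusted p under 0.05, all higher, against 0.582% of all probe sets (0.477% higher, 0.104% lower). Treated and vehicle arrays stood clear of each other in these same 3 sets, as in 9.46% of all probe sets (5.38% higher, 4.08% lower). Sprr2h, a gene of the Sprr2 branch, read 5.13, 6.00 and 6.00 in vehicle and 7.12, 6.94 and 7.44 in 1,25D. All 3 treated arrays lay above all vehicle arrays. The change was 1.46 on the log2 scale (SE 0.23, 2.74-fold, adjusted p = 0.00761). The Sprr2h probe set is of the kind named _s_at, whose probes can match several related transcripts. Vehicle replicate 1 was the low value, and without it the change was 1.17 (adjusted p = 0.014).

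Sprr2a has been described in gut epithelium exposed to bacteria as well as in squamous epithelium. Its brighter sets gave the same picture at 6 h. The bright 2-gene set read 8.91, 8.79 and 8.56 in vehicle and 10.07, 9.65 and 9.71 in 1,25D, a change of 1.06 (SE 0.17, 2.08-fold, adjusted p = 0.00799). The 3-gene set read 9.33, 9.65 and 9.53 against 10.39, 10.28 and 10.13, a change of 0.77 (SE 0.14, 1.70-fold, adjusted p = 0.0248). Neither set had overlapping groups. The dim 2-gene set was at the 18.1 percentile of all probe sets in vehicle at 6 h. Its groups overlapped (change 0.04, 95% interval -0.23 to 0.31).

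For the other 7 single-gene sets the log2 change at 6 h ran from -0.21 (Sprr2i) to 0.21 (Sprr2d), and treated and vehicle arrays overlapped in each. Their mean percentile ranks in vehicle at 6 h ran from 28.2 (Sprr2f) and 41.3 (Sprr2i) to 87.4 (Sprr1b). A response of the dim sets at 6 h could thus be missed. For Sprr2f the 95% interval was -0.53 to 0.61, and for Sprr1b -0.53 to 0.64. The median over the 11 sets was 0.09, beside -0.01 over all probe sets. The 6 h calls are the less firm ones. Without 1,25D 6 h replicate 1 only Sprr2h was called, and without 1,25D 6 h replicate 3 only the bright 2-gene set of Sprr2a. With a fit on the 2 groups of the comparison alone none was (adjusted p from 0.059 to 0.106, with 3 sets at an unadjusted p under 0.05 by limma). The 3-gene set also lost its call without vehicle 6 h replicate 1 (adjusted p = 0.0918), vehicle 6 h replicate 3 (0.0735) or 1,25D 6 h replicate 2 (0.0964). Without the 2 arrays with narrow ranges, 2 sets were called, and the 3-gene set gave an adjusted p of 0.0715.

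At 48 h all 11 sets were called by limma, 8 higher and 3 lower, against 1.33% of all probe sets (0.799% higher and 0.533% lower). In each of the 11 the treated arrays lay wholly above or wholly below the vehicle arrays, which was so for 8.93% of all probe sets (4.06% higher, 4.86% lower). The median log2 change was 1.70 over the 11 sets, 2.44 over the 8 single-gene sets and 0.0042 over all probe sets. Without the 2 arrays with narrow ranges, again 8 were higher and 3 lower.

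In the Sprr2 branch, whose members share a short cysteine-containing repeat, the Sprr2f set changed most. It read 7.16, 7.16 and 7.74 in vehicle and 11.63, 11.56, 11.62 and 11.28 in 1,25D. The lowest treated array was far above the highest vehicle array, and the change was 4.17 (SE 0.25, 18.0-fold, adjusted p = 3.59e-07). Sprr2i, a gene of the same branch, read 6.11, 5.94 and 6.59 in vehicle and 8.90, 8.99, 9.35 and 8.49 in 1,25D. Its groups were also well apart, with a change of 2.72 (SE 0.20, 6.59-fold, adjusted p = 4.05e-06).

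Sprr2d read 10.23, 10.27 and 10.78 in vehicle and 13.03, 12.91, 13.04 and 12.90 in 1,25D. The treated arrays agreed closely, at 12.97 ± 0.08 (SD, n = 4), and the change was 2.54 (SE 0.16, 5.82-fold, adjusted p = 8.22e-07). Sprr2h rose again, from 9.02, 9.31 and 9.58 to 11.94, 11.75, 11.98 and 11.50 (2.49, SE 0.22, 5.62-fold, adjusted p = 1.83e-05). Sprr2k moved least of the single-gene Sprr2 sets. It read 7.47, 7.63 and 7.49 in vehicle and 8.41, 8.11, 8.73 and 8.71 in 1,25D, a change of 0.96 (SE 0.16, 1.95-fold, adjusted p = 0.00668). Its 95% interval was 0.61 to 1.31, and that of Sprr2d was 2.19 to 2.89. As probe sets bind differently, this compares the sets and does not rank the changes in mRNA.

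Sprr1 proteins are cross-linked envelope precursors that are also made by injured or stressed cells outside squamous epithelium. Sprr1b read 9.05, 9.54 and 9.84 in vehicle and 12.18, 11.46, 12.28 and 11.54 in 1,25D (2.39, SE 0.25, 5.24-fold, adjusted p = 0.000122). Sprr1a read 10.34, 10.79 and 11.08 in vehicle and 12.50, 12.08, 12.78 and 12.40 in 1,25D (1.70, SE 0.20, 3.25-fold, adjusted p = 0.000342). The groups did not overlap for either gene.

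Sprr3, the member best known from mouth and oesophagus, had the smaller change of 1.00 (SE 0.18, 2.00-fold, adjusted p = 0.0125). It read 6.25, 6.38 and 6.52 in vehicle and 7.40, 6.96, 7.77 and 7.39 in 1,25D. This call was lost in 3 of 24 alternatives: adjusted p was 0.0851 without vehicle 48 h replicate 1, 0.0654 without vehicle 48 h replicate 2 and 0.0516 in a fit on the 2 compared groups alone.

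The Sprr2a sets went the other way at 48 h. The bright 2-gene set read 12.31, 12.67 and 12.59 in vehicle and 11.36, 11.02, 11.75 and 11.40 in 1,25D, a change of -1.14 (SE 0.16, 2.21-fold lower, adjusted p = 0.00156). The 3-gene set read 12.84, 12.97 and 13.14 against 11.82, 11.59, 12.22 and 11.76, a change of -1.14 (SE 0.13, 2.20-fold lower, adjusted p = 0.000342). Every treated array lay below every vehicle array in both. The dim 2-gene set read 5.09, 4.54 and 4.94 in vehicle and 4.32, 4.30, 4.36 and 4.40 in 1,25D. Its change of -0.51 just passed (SE 0.12, adjusted p = 0.048) and was called in 8 of 23 alternatives, with an adjusted p of 0.286 when vehicle 48 h replicate 1 was left out. Of the 13 arrays, leaving out any but vehicle 48 h replicate 2 ended this call.

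Sprr2j-ps, the pseudogene between Sprr2i and Sprr2k, read 5.07, 5.08 and 5.43 in vehicle and 7.48, 7.45, 7.60 and 6.53 in 1,25D (2.07, SE 0.22, adjusted p = 0.000145). The closeness of Sprr2 sequences means that a set named for 1 of these genes can take up RNA of another, and how far it did was not tested.

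**Figure D3:**
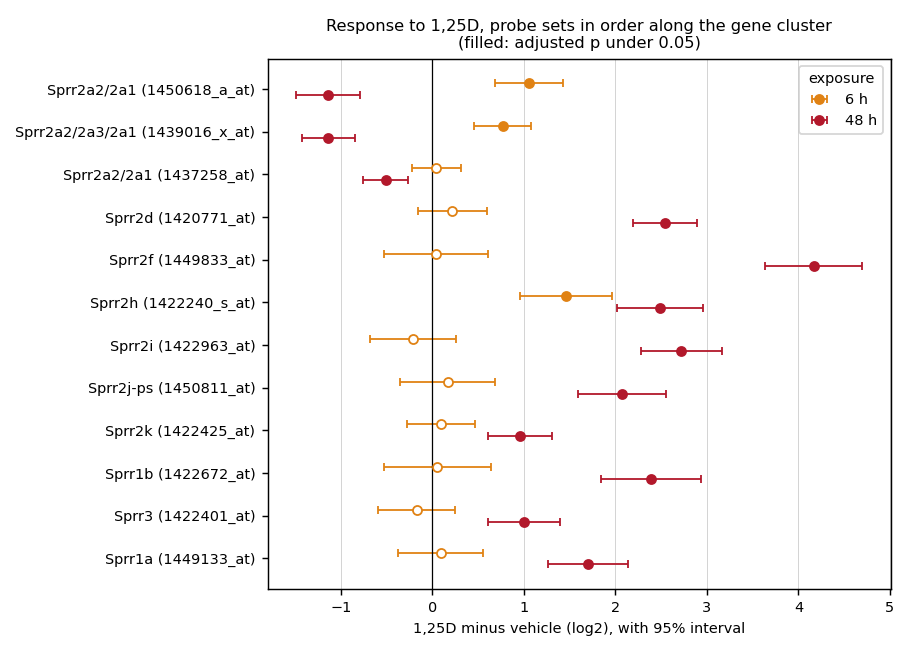
Log2 change from vehicle to 1,25D (horizontal axis) with its 95% interval, at 6 h and 48 h, for each probe set in cluster order; filled points had an adjusted p under 0.05. At 48 h the Sprr2a sets lie between -0.51 and -1.14 and the 8 single-gene sets between 0.96 and 4.17.

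The response at 48 h differed from that at 6 h for 7 of the 11 sets, by limma's test of the difference itself, against 0.36% of all probe sets (0.184% positive and 0.175% negative). Without the 2 arrays with narrow ranges 8 sets were called. It was greater at 48 h for Sprr2f (by 4.13, SE 0.36, adjusted p = 0.000104), Sprr2i (2.93), Sprr1b (2.33), Sprr2d (2.33) and Sprr1a (1.61, adjusted p = 0.0321). For the bright 2-gene set and the 3-gene set of Sprr2a it turned from positive to negative, by -2.20 (SE 0.24, adjusted p = 0.000491) and -1.91 (SE 0.20, adjusted p = 0.000393). The Sprr2f and Sprr2i sets were dim at 6 h, which may understate their 6 h response and so overstate their difference. Sprr2h (1.03, adjusted p = 0.435), Sprr3 (1.17, adjusted p = 0.12), Sprr2k (0.86, adjusted p = 0.291) and the dim 2-gene set (-0.55, adjusted p = 0.424) did not pass this test. All 11 sets had an unadjusted p under 0.05 by limma for the difference, so these sets are not shown to respond alike at both times. The call for Sprr1a was lost when any 1 of 9 arrays was left out, that is, any but 1,25D 6 h replicate 3, vehicle 48 h replicate 3 and 1,25D 48 h replicates 2 and 4 (adjusted p 0.0551 to 0.0895). Sprr3 passed without 1,25D 48 h replicate 2 (adjusted p = 0.0403) and with array weights (0.0273). Sprr2h passed without the 2 arrays with narrow ranges (0.0143), with array weights (0.0187) and with an offset of 64 (0.00647).

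Sprr signals also changed with time in culture, and here the called Sprr2a sets rose, as the called single-gene sets did. From 6 h to 48 h in vehicle 8 of the 11 sets rose and none fell, against 12.3% of all probe sets called (6.37% higher, 5.9% lower). Without the 2 arrays with narrow ranges, 9 sets were called. Sprr2d rose by 4.68 (SE 0.17, adjusted p = 2.02e-09), the bright 2-gene set of Sprr2a by 3.77, Sprr2h by 3.59, the 3-gene set by 3.48, Sprr1a by 3.39 and Sprr2f by 2.73. Sprr2i (1.05) and the dim 2-gene set (0.66) rose less, and the Sprr2i call was lost with an offset of 64 added to the signals (0.47, adjusted p = 0.0684). Sprr1b, at 9.27 ± 0.09 (SD, n = 3) and 9.47 ± 0.40 (SD, n = 3) in vehicle, did not pass the test (0.21, 95% interval -0.38 to 0.80), nor did Sprr3 (0.17) or Sprr2k (0.56, adjusted p = 0.0512). Sprr2k passed in 7 of 24 alternatives, among them leaving out 1,25D 48 h replicate 2 or replicate 4 and leaving out both arrays with narrow ranges (adjusted p from 0.0246 to 0.0451). Time itself, the density of the cells and the renewal of medium cannot be told apart here.

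From 6 h to 48 h in 1,25D, 10 of the 11 sets rose and none fell, against 16.4% of all probe sets called (7.09% higher, 9.31% lower), and again 10 without the 2 arrays with narrow ranges. Sprr2d rose by 7.01 and Sprr2f by 6.86 on the log2 scale, and Sprr1a by 5.00. The bright 2-gene and 3-gene sets of Sprr2a rose by 1.57 and 1.58, and the dim set did not pass the test (0.10). Both time comparisons use the arrays of the treatment comparisons, so their values stand side by side and are not independent of them.

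**Figure D4:**
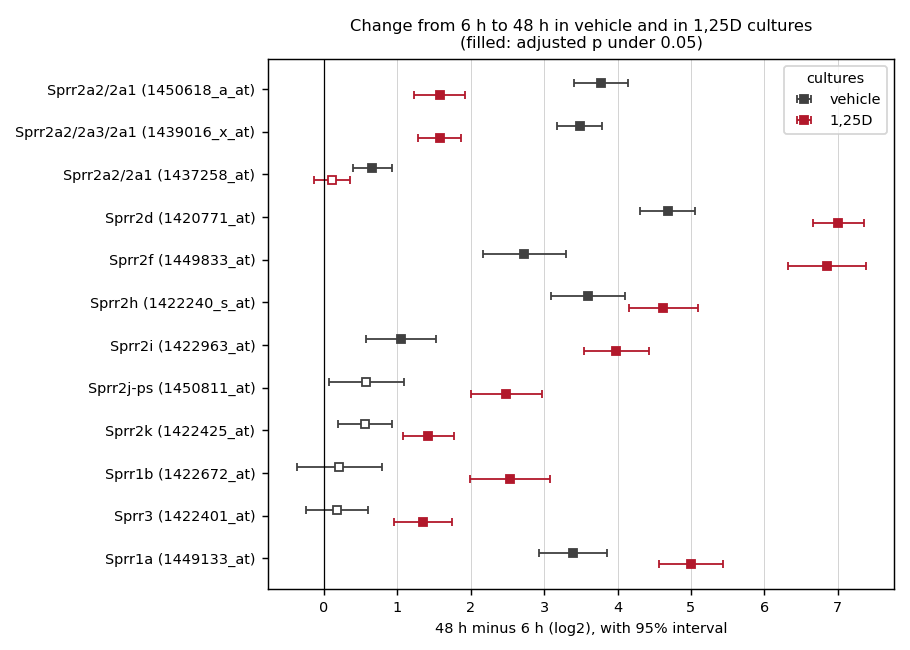
Log2 change from 6 h to 48 h (horizontal axis) with its 95% interval, in vehicle and in 1,25D cultures, for each probe set in cluster order; filled points had an adjusted p under 0.05. Values of single-gene sets are larger in 1,25D than in vehicle (7.01 against 4.68 for Sprr2d), and those of the Sprr2a sets are larger in vehicle.

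The members therefore fell into different orders of group means. For the bright 2-gene and 3-gene sets of Sprr2a the order from low to high was vehicle 6 h, 1,25D 6 h, 1,25D 48 h and vehicle 48 h, and no neighbouring groups overlapped. Sprr2h ran from vehicle 6 h through 1,25D 6 h and vehicle 48 h to 1,25D 48 h, again with no overlap between neighbours. For Sprr2d, Sprr2f and Sprr1a the 6 h groups overlapped, vehicle at 48 h lay above them and 1,25D at 48 h was highest. Sprr1b and Sprr3 were highest in 1,25D at 48 h, with no overlap with other groups, and their other 3 groups had means of 9.27 to 9.47 and of 6.04 to 6.38. For Sprr2k both 6 h groups overlapped, and vehicle at 48 h (7.53) and 1,25D at 48 h (8.49) lay above them in turn. Sprr2i had 6 h means of 5.17 in vehicle and 4.95 in 1,25D, then 6.21 in vehicle and 8.93 in 1,25D at 48 h. Among all probe sets, full separation of the vehicle group from the 1,25D group was found in 9.46% at 6 h and 8.93% at 48 h. How common it is between groups at different times was not tested, so separation there only describes these sets.

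Other genes of the cornified envelope moved less uniformly. From a list of 56 names, 48 genes were measured under their symbol, of which 2 rose and 0 fell at 6 h, against 0.582% of all probe sets called. At 48 h 8 rose and 1 fell, against 1.33%. The 6 h genes were Csta1, a stefin-type protease inhibitor (1.46, adjusted p = 0.001), and the cross-linking enzyme Tgm2 (1.00, adjusted p = 0.00125). At 48 h the calls with the smallest p were the stefins Stfa2l1 (4.04), Stfa3 (2.31) and Csta1 (2.77), the corneodesmosome gene Cdsn (2.73) and the sciellin gene Scel (1.99). The list's median log2 change was 0.19 at 48 h and 0.01 at 6 h, beside 0.0042 and -0.01 over all probe sets. The member that fell was Anxa1 (-0.25). From 6 h to 48 h in vehicle 13 rose and 0 fell, against 12.3% of all probe sets, led by repetin, Rptn (4.25).

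Some transcription factors known to act on Sprr or envelope genes also passed the test. Of 35 measured factors in a list of 38, 2 rose and 1 fell at 6 h, against 0.582% of all probe sets called, namely Ets1 (1.39), Fos (0.57) and, lower, Stat3 (-0.94). At 48 h 3 rose and 0 fell, against 1.33% of all probe sets: Fos, an AP-1 subunit (0.67), Prdm1, a factor of terminal differentiation (0.82), and Klf4, a factor of the epidermal barrier (0.54). In vehicle from 6 h to 48 h 10 rose and 1 fell, against 12.3% of all probe sets, with Nfe2l3 higher by 1.91, Ehf, an epithelial Ets factor, higher by 1.58 and the AP-1 subunit Fosl1 lower by -1.80.

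Keratins listed here as markers of squamous mucosa were higher in 1,25D at 48 h, as the single-gene Sprr sets were. All 5 keratins of that list rose, against 1.33% of all probe sets called at 48 h (0.799% higher). The list alone does not identify a type of epithelium. They were Krt4 (3.32), Krt6b (1.63), Krt16 (1.51), Krt13 (1.26) and Krt6a (0.29). Krt4 also rose at 6 h, by 1.15. From 6 h to 48 h in vehicle Krt6b (3.42) and Krt4 (1.03) rose, and Krt16 (0.38), Krt13 (0.28) and Krt6a (-0.09) were not called. The summed signal of these 5 at 48 h, on the log2 scale, was 14.08 to 14.30 over vehicle arrays and 15.13 to 15.24 over 1,25D arrays. Of 5 suprabasal epidermal markers none passed the test at 48 h, with mean percentile ranks of 6.60 (Flg), 29.5 (Krt1), 68.7 (Krt10), 71.7 (Lor) and 80.7 (Krtdap). Their summed signal was 10.05 to 10.46 in vehicle and 10.14 to 11.17 in 1,25D. Of these 5, only Krtdap rose from 6 h to 48 h in vehicle (2.68). Of the 6 basal markers none was called at 6 h or 48 h. The luminal keratins Krt8 (-0.43) and Krt18 (-0.34) fell at 48 h, and Acpp rose at 6 h (1.49) and at 48 h (0.70). From 6 h to 48 h in vehicle the basal markers Krt15 (1.69) and Trp63 (1.14) rose. So did the luminal markers Acpp (1.54) and Krt18 (0.30). In that comparison 12.3% of all probe sets were called. Of 7 immune markers only Cd68 was called, higher at 48 h (1.23) and from 6 h to 48 h in vehicle (1.02). The summed signal of that list at 48 h was 8.73 to 8.78 in vehicle and 9.04 to 9.37 in 1,25D. None of 5 urothelial, 8 stromal and 5 endothelial markers was called at 6 h or 48 h. Of all probe sets 0.582% were called at 6 h and 1.33% at 48 h, so a short list without calls says little about its cell type. The part of these markers in the Sprr values was not tested, and in such bulk RNA more cells of a type and more mRNA in each cell cannot be told apart.

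A few genes had profiles most like those of Sprr2d, Sprr1b or Sprr3, the only Sprr sets compared in this way. Likeness was the root mean square difference, in log2 units over the 13 arrays, after each probe set's own mean was subtracted, among 16297 named genes outside the family. Nearest to Sprr2d, whose own spread on this measure was 3.15, were Rptn (0.797), Cyp2f2 (0.893), the keratin Krt6b (0.956), the alarmin gene Il33 (0.967) and Mgp (1.18). Nearest to Sprr1b (own spread 1.20) were Nt5dc2 (0.302), the Wnt inhibitor Wif1 (0.339), the potassium channel subunit Kcne3 (0.346), the lipid carrier Fabp4 (0.37) and Krt16 (0.402). Nearest to Sprr3 (own spread 0.589) were Fcna (0.188), Lypd3 (0.211), Ppm1j (0.215), Prdm1 (0.234) and Ces2e (0.244).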

How the data were processed

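Group and replicate came from sample titles, and each array's column is named by its sample. The authors' deposited values are log2 signals per probe set. The submitters' processing notes name MAS5, with no version or role, and nothing used here says how arrays were normalized. No detection calls entered the tests, so folds of dim sets may be understated. The table holds 45101 probe sets, and 64 control sets were removed. The design text names a smaller chip of the same family than the table and its annotation correspond to. Of the rest, 34945 had 1 gene symbol, 932 several and 9160 none.

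Group means over all 13 arrays were fitted in limma 3.58.1 (R 4.3.3) with an intensity trend, two-sided, and adjusted over 45037 probe sets. Rose, fell and called mean an adjusted p under 0.05, and all changes are log2 differences of group means. For the lists, a gene was read from its brightest single-gene probe set. All Sprr sets are shown. List genes named are called ones, at most 5 with the smallest p, and Anxa1 and single marker genes were chosen after their values were seen. Likeness gives the 5 genes nearest to the brightest Sprr1, Sprr2 and Sprr3 single-gene set. Members and lists were chosen with earlier results of these data known. Promoters were matched by symbol to RefSeq (GRCm38.p6), aligned globally with Biopython 1.88. A build for the array is not given in the sources used here. The fit was tested on simulated data. Alternatives were other normalizations, offsets of 16 and 64, other variance settings, a filter on dim sets, fewer groups or arrays, array weights and the replicate number as a block.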

Additional observations from a re-analysis of the deposited data

Results flagged for a closer look

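The response to 1,25D differed between 6 h and 48 h, by limma's test of the difference, for Sprr2f (4.13), Sprr2i (2.93), Sprr1b (2.33), Sprr2d (2.33) and Sprr1a (1.61). It also differed for the bright 2-gene set (-2.20) and the 3-gene set (-1.91) of Sprr2a and for Sprr2j-ps (1.91). In 1,25D at 48 h, replicate 4 of Sprr2j-ps stood at 6.53, apart from the other 3 arrays: the gap to its nearest neighbour was 0.862 of the range. It was the only one of the 12 sets with such a gap among the 4 arrays, and chance gives about 1 in 20. That array also has the narrowest range of signals.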

How the results depend on the processing

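Over the 24 alternatives (23 for the difference) the number of Sprr sets called was 9 to 11 at 48 h, 6 to 9 for the difference, 7 to 9 for time in vehicle and 10 in each for time in 1,25D. No called change reversed. At 6 h the count was 0 with the 2 compared groups alone, where 3 sets had an unadjusted p under 0.05 by limma, and 1 to 3 when arrays were left out in turn. Other counts with an array left out were 9 to 10 at 48 h, 6 to 8 for the difference, 8 to 9 for time in vehicle and 10 for time in 1,25D. Among all probe sets, 262 were called at 6 h, against 121 with the 2 groups alone, 400 with array weights, 425 without the 2 arrays with narrow ranges and 173 to 323 with an array left out. At 48 h 600 were called, against 1639 with array weights, 924 without the 2 arrays and 356 to 696 with an array left out. The cause was not tested, except that fewer arrays enter some fits. An offset of 64 lowered the Sprr2h change at 6 h to 0.82 and the Sprr2f change at 48 h to 3.72.

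Same-numbered arrays deviated together in some pairs only. Over the pairs of vehicle and 1,25D arrays the correlation of deviations was 0.0692 to 0.277 at 6 h and -0.53 to 0.386 at 48 h. At 6 h vehicle replicates 1 (0.277) and 2 (0.222) were most like the treated array of their own number, and at 48 h no replicate was. So few pairs cannot settle whether arrays of a number belong together. With the replicate block, 3 Sprr sets were called at 6 h, 11 at 48 h, 7 for the difference, 8 for time in vehicle and 10 for time in 1,25D, the same counts as without it. The dim 2-gene set of Sprr2a was left out by the filter on dim sets, and its low signal limits what it can show.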
